A study of Mus musculus with 3 samples.

Results

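The respiratory chain genes described here were the rows of the deposited gene table that carry a single symbol naming a nuclear-encoded subunit of complexes I to V (names beginning Ndufa, Ndufb, Ndufc, Ndufs, Ndufv, Uqcr, Cox4 to Cox8 or Atp5, and Sdha to Sdhd). Of 82 matching symbols, 77 had a mean of 1 FPKM or more over the libraries, out of 11858 loci at that level and 24401 loci in all. FPKM, fragments per kilobase of transcript scaled to the mapped fragments of the library, is a length-corrected expression level. By complex, 35 genes belonged to complex I, 3 to complex II, 8 to complex III, 15 to complex IV and 14 to complex V. The other 2, Atp5s and Atp5sl, carry an Atp5 name but encode factors, not subunits. The choice used names and mean level only, not a difference between conditions.

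The cells were C2C12, an established mouse myoblast line that fuses into myotubes when serum is lowered. All cultures were grown to confluency and then differentiated for 72 h in DMEM, a standard growth medium, with 2% horse serum and 1 µg/ml insulin. Each then received 1 of 3 treatments for 24 h: DMEM (control), medium conditioned for 24 h by S2-013 cells (a human pancreatic cancer line), or the same cancer-cell medium plus 50 µM resveratrol (a polyphenol made by plants). Resveratrol given without the cancer-cell medium was not analysed here, so its values describe the 2 agents combined. The labels give the cell type as myoblast although the protocol differentiates the cells, and 8 of 8 myotube markers were measured, with Acta1 at 1568, 1496 and 2273 FPKM in the control, conditioned-media and resveratrol libraries.

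There was 1 library per condition. No value below therefore has an error, no p-value was computed, and every difference is a difference between single libraries. Read depth per library is unknown because the table holds FPKM without counts. RNA came from whole cultures, so fewer cells of a type and less RNA per cell cannot be told apart. Ratios are log2 of (FPKM + 1), and a gene passed the size rule when its ratio was 1 or more in either direction. Calls and q values are quoted from the authors' deposited table, where Cuffdiff compared the libraries pairwise and q under 0.05 was called; those calls rest on single libraries too. All 3 comparisons reuse the same libraries and are not independent of each other.

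The respiratory chain passes electrons from NADH through complex I, and from succinate through complex II, to ubiquinone, then through complex III and cytochrome c to complex IV, where oxygen is reduced. Complexes I, III and IV pump protons across the inner membrane, and complex V (ATP synthase) lets them return through its c ring while its F1 head makes ATP. Muscle relies on this chain for sustained work, and several complex IV subunits have a heart and skeletal muscle isoform beside a ubiquitous one. Most subunits are nuclear-encoded. The 13 encoded by mitochondrial DNA were not analysed here.

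ATP synthase genes were the most abundant of the chain per length. Atp5b, the catalytic beta subunit, had the highest level of all 77 genes in every library, at 675 FPKM in the control library, 680 with conditioned media and 630 after adding resveratrol. It was followed in complex V by the c-ring genes Atp5g2 (412, 455 and 485 FPKM) and Atp5g3 (440, 356 and 418 FPKM). The complex V genes lay close together, with the highest 4.57, 4.75 and 4.16 times the lowest (Atp5f1) in the control, conditioned-media and resveratrol libraries.

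Complex IV was led by Cox6c (376, 370 and 434 FPKM), Cox4i1 (350, 370 and 426 FPKM) and Cox8a (267, 329 and 396 FPKM). Its range was wide: the top gene was 30.7 times the lowest, Cox7a1, in control. Complex III split by role. Its small subunits Uqcrq (246, 248 and 267 FPKM), Uqcrh (207, 209 and 284 FPKM) and Uqcrb (216, 194 and 250 FPKM) stood above the large core proteins Uqcrc1 (79.2, 77.5 and 78.4 FPKM) and Uqcrc2 (76.1, 75.9 and 83.1 FPKM).

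In complex I the highest genes were Ndufb9 (210, 220 and 247 FPKM), Ndufa7 (170, 167 and 235 FPKM) and Ndufa6 (153, 182 and 209 FPKM). The lowest was Ndufa11, a membrane-arm subunit, at 13.2, 12.6 and 13.4 FPKM. The complex II genes were near 100 FPKM: the iron-sulfur subunit Sdhb was at 77.5, 78.7 and 77.5 FPKM, and the membrane anchors were at 105, 101 and 127 FPKM (Sdhc) and 96.8, 84.8 and 105 FPKM (Sdhd). Sdha, the flavoprotein, shares a row with Pdcd6 (134, 136 and 144 FPKM for the joint locus) and is not one of the 77. Likewise Atp5g1 shares a row with Ube2z, at 208, 182 and 180 FPKM.

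The symbols under the expression limit were mostly tissue-restricted isoforms. Cox8c was listed at 0 in every library. Cox4i2, Cox6b2 and Cox7b2 had a mean of 0.0348, 0.131 and 0.202 FPKM. Ndufa4l2, a paralog of the complex IV subunit Ndufa4, lay just outside the limit at 0.604, 0.861 and 0.946 FPKM, while Atp5sl (3.75, 4.92 and 7.30 FPKM) and Atp5s (3.55, 5.83 and 8.96 FPKM) were the lowest genes inside it.

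**Figure D1:**
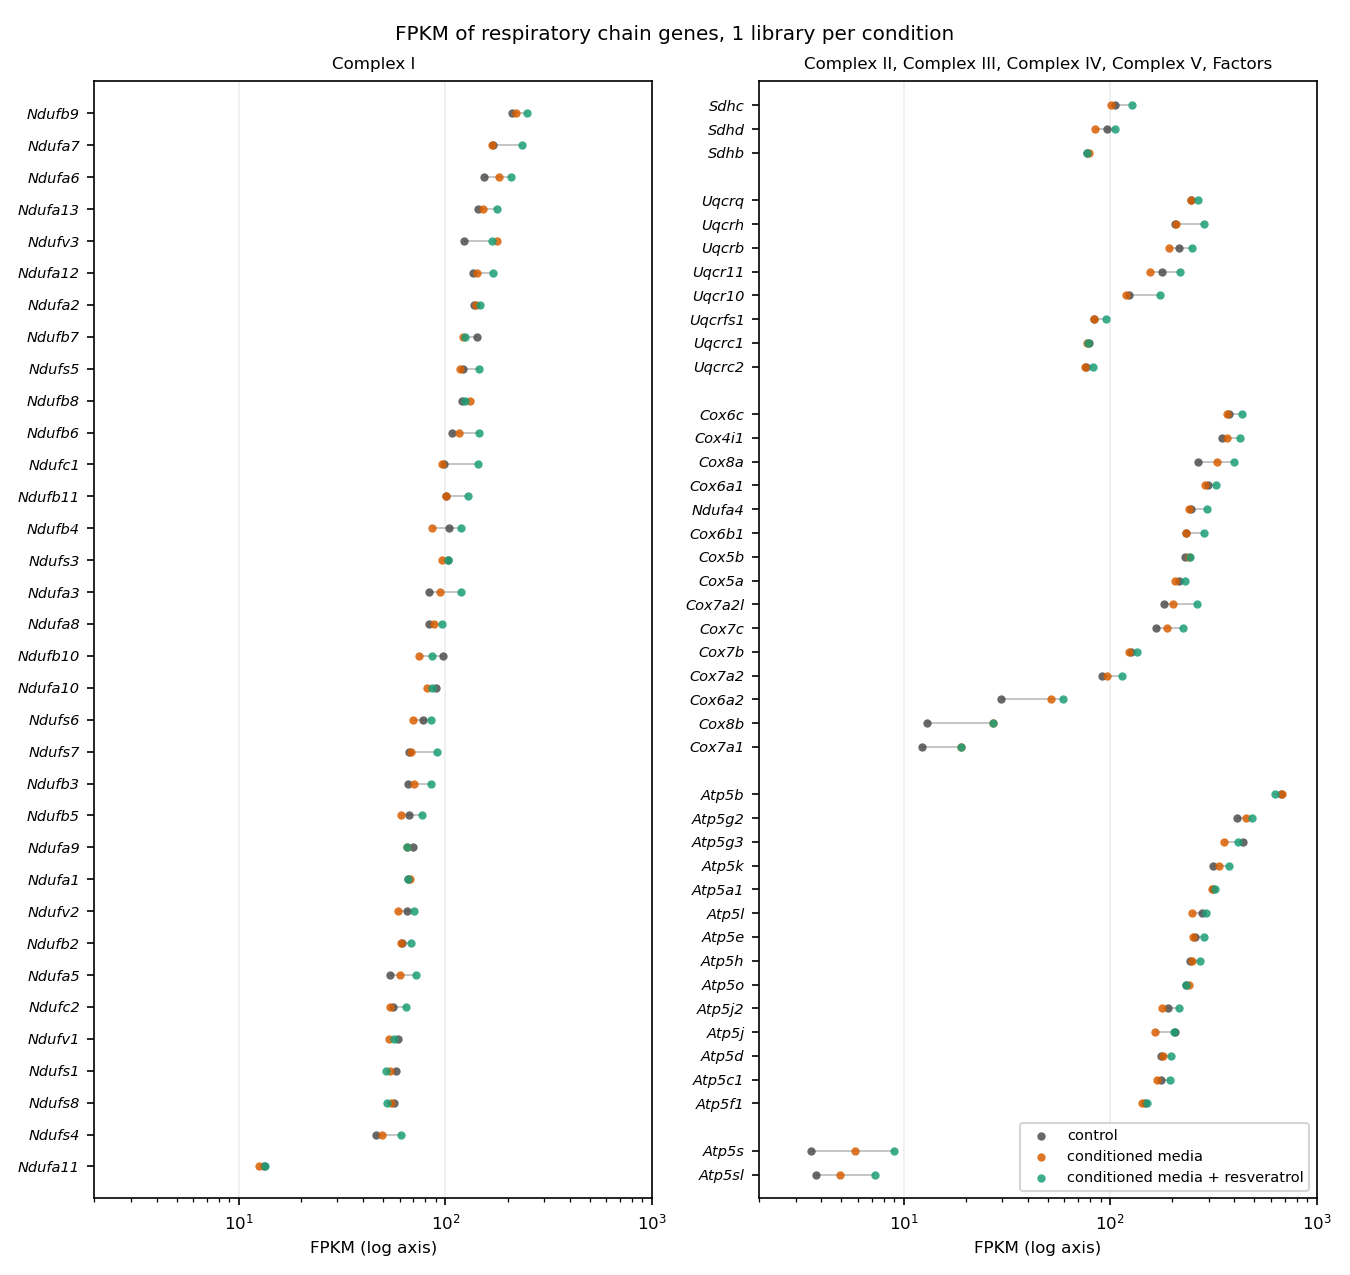
FPKM (log axis) of 76 of the 77 genes in the 3 libraries, ordered by mean within complex I (left) and within complexes II to V and the Atp5-named factors (right); a grey line joins the 3 values of a gene. Over all 77 genes the resveratrol library is the highest of the 3 for 58, and the points of most genes lie close together.

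Some reads may not be unique to a gene. The table gives 14 of the 77 genes a span that it also gives to another locus: Ndufa2, Ndufa10, Ndufa13, Ndufb3, Ndufb11, Ndufs1, Ndufs7, Uqcrc2, Cox6a2, Atp5b, Atp5c1, Atp5d, Atp5f1 and Atp5j. For Ndufs7 and Atp5d that span covers 48 loci, so their values are uncertain. The sources used here do not say whether reads were counted by strand.

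Conditioned media against control compared cultures given cancer-cell medium with cultures given DMEM. The control medium was not conditioned by any cells. Factors released by the cancer cells and other changes made to a medium by conditioning thus cannot be told apart. The chain as a whole had a ratio near 0: the 77 genes had a median log2 ratio of -0.0050, against -0.011 over all 11858 loci. The ratio was above 0 for 37 genes and below 0 for 40, and 48.7% of all loci were above 0. Rescaling each library to TPM put 71 of the 77 genes above 0 and moved the genes' median to 0.18 and that of all loci to 0.14. Any direction of the chain as a whole thus depends on the scaling. The 77 genes made up 0.347% of the summed FPKM of all loci in control and 0.398% in conditioned media. By transcript length, loci of 700 bases or less had a median of 0.086, and the chain genes of that length 0.0084. Above 700 and up to 1000 bases the medians were 0.067 and 0.030. Above 1000 and up to 1500 bases they were 0.016 and -0.028, and above 1500 bases -0.025 and -0.038. On the deposited scale the chain genes were thus below all loci of their length in each class. The part of length was not tested.

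One gene of the 77, Cox8b, was higher by the size rule, which 1.98% of all loci passed upward. No gene was lower by it, against 0.751% of all loci. The authors' deposited table called 10 of the 77 higher and 11 lower, smaller shares than the background, where 25.8% of tested loci were called higher and 29.9% lower. Of those 21 calls, 14 (66.7%) had a test statistic below 2 in size, beside 45.1% of the calls over all loci.

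Complex IV stood out by its muscle isoforms. Cox8b, the heart and skeletal muscle form of subunit VIII (mm10 chr7:140898942-140900446), had 13.0 FPKM in the control library and 27.2 in each library with conditioned media. Both conditioned-media libraries were thus about the same and above the control, with a log2 ratio of 1.01 in conditioned media over control. The authors' deposited table gave it q = 0.00321 (Cuffdiff), with a test statistic of 1.92, below 2 in size. Cox6a2, the muscle form of subunit VIa (mm10 chr7:128173946-128206366), had 29.8, 51.9 and 59.0 FPKM. The 2 loci listed at the same span were at 0.0132, 0 and 0 FPKM (Itgad) and at 0 in every library (4931431B13Rik). Its log2 ratio in conditioned media over control was 0.78, and the authors' deposited table called it with q = 0.000148 (Cuffdiff).

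Cox7a1, the muscle form of subunit VIIa (mm10 chr7:30184171-30186030), had 12.2, 19.0 and 18.9 FPKM and a log2 ratio of 0.60. It was not called in the authors' deposited table (Cuffdiff, q = 0.0700). All 3 muscle isoforms were lowest in control, by deposited FPKM and after rescaling to TPM alike. Their median log2 ratio was 0.78, beside 0.0059 for the 11 ubiquitous or single-gene subunits of complex IV.

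The ubiquitous partners behaved differently from one another. Cox6a1 was at 297, 289 and 325 FPKM, and Cox7a2 at 91.1, 96.7 and 114 FPKM, so neither shifted much with conditioned media. Cox8a, the partner of Cox8b, was called higher in the authors' deposited table, with a log2 ratio of 0.30. As a share of the FPKM of both isoforms, Cox6a2 went from 9.12% in control to 15.2% in conditioned media, Cox7a1 from 11.8% to 16.4%, and Cox8b from 4.65% to 7.65%. The ubiquitous isoform stayed at least 5.09 times the muscle isoform in every pair and library.

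**Figure D2:**
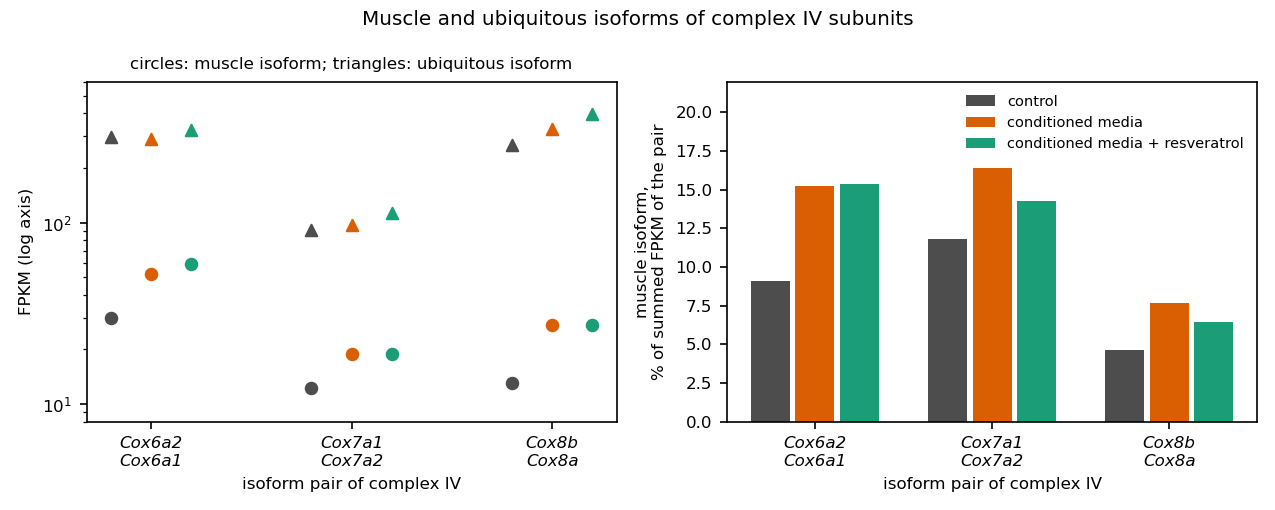
Left, FPKM (log axis) of the muscle isoform (circles) and the ubiquitous isoform (triangles) of 3 complex IV subunits in each library; right, the muscle isoform as a percentage of the summed FPKM of the pair. The control circle is the lowest of each pair, and the control bar of Cox6a2 is 9.12% beside 15.2% in conditioned media and 15.4% with resveratrol.

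The promoters of these isoform pairs are shown because the 2 isoforms of a subunit had different ratios. Each run is the 250 bases before the transcript start on the gene's strand, from RefSeq (GRCm38.p6). Capitals mark matches to an NRF1 motif (GCGC, any 2 bases, GCGC), an ETS motif (CCGGAAG), an E-box (CAGCTG), a YY1 motif (AAGATGG) or an ERR motif (AAGGTCA) on either strand. They lie at chr7:140900447-140900696 for Cox8b, chr19:7217617-7217866 for Cox8a, chr7:30183921-30184170 for Cox7a1, chr9:79759854-79760103 for Cox7a2 and chr5:115348959-115349208 for Cox6a1. No run is printed for Cox6a2.
Cox8b: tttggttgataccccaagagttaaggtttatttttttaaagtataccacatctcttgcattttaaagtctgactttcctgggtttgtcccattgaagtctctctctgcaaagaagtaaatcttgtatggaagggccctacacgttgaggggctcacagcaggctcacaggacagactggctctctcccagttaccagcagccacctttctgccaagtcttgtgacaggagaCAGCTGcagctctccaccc
Cox8a: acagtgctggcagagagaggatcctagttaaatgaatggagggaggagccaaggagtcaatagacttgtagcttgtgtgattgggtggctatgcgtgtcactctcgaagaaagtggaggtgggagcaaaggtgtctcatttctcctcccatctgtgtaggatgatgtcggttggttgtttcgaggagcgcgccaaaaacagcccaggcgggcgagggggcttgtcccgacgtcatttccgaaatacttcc
Cox7a1: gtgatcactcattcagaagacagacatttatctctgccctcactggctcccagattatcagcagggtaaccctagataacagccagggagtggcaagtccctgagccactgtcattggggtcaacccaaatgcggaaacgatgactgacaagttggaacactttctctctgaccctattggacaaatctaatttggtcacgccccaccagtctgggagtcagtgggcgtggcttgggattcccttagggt
Cox7a2: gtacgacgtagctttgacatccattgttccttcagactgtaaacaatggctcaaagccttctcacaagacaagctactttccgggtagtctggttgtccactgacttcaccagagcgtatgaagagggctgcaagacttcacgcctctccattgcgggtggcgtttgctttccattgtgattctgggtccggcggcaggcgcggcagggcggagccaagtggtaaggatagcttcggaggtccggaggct
Cox6a1: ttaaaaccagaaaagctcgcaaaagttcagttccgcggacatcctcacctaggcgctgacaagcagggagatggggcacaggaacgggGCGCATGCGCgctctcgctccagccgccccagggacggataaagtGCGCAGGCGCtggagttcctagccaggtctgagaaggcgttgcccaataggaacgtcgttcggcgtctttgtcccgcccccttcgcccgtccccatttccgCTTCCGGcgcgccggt

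The Cox8b run holds 1 E-box, the letters bound by myogenic bHLH factors, and the Cox6a1 run holds 2 NRF1 matches and 1 ETS match. The runs of Cox7a1, Cox7a2 and Cox8a hold none of these motifs. Cox8a has 1 ETS match across its start and 1 after it, and Cox8b has a further E-box after its start. Of the 77 genes, 65 had a RefSeq promoter. Over the whole 300-base window, which adds the 50 bases after the start, an NRF1 match was in 24.6% of the 65 (6.43% of 27025 promoters) and an ETS match in 23.1% (9.12%). A YY1 match was in 16.9% (6.48%) and an ERR match in 12.3% (4.66%).

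At least 1 of the NRF1, ETS and YY1 motifs, of which the last 2 can overlap by the letters AAG, was in 56.9% of the 65 promoters and 19.8% of all promoters. The E-box was in 9.23% of the 65 and 16.1% of all promoters. A MEF2 match was in 0 of the 65 and 3.26% of all. The 65 upstream runs had a median GC content of 56.4%, and all promoters 52.0%. The 65 belong to genes that passed the expression limit, whereas all promoters were taken without regard to expression in these cells. The part of expression or of GC content in these shares was not tested. A match describes letters only and is not a binding site.

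Among the other complex IV genes, Cox7a2l, which takes part in joining complexes III and IV into supercomplexes, had a log2 ratio of 0.14 in conditioned media over control. Cox4i1 had 0.081 and Cox7c 0.18. These 3 were called higher in the authors' deposited table, which with Cox8a, Cox8b and Cox6a2 makes 6 of the 15 complex IV genes called higher and 0 lower. Cox5a (215, 207 and 231 FPKM), which had the lowest ratio of the complex at -0.059, Cox7b (126, 124 and 135 FPKM) and Ndufa4 (248, 242 and 293 FPKM) were not called. Nor were Cox5b, Cox6a1, Cox6b1, Cox6c, Cox7a1 and Cox7a2. The complex IV median of 0.081 was the only one of the 5 complexes above 0 on the deposited scale. After rescaling to TPM all 5 medians were above 0, from 0.14 (complex II) to 0.27 (complex IV).

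Complex I had 2 genes called higher and 5 lower of 35 in the authors' deposited table, with a median log2 ratio of -0.025. Ndufv3, an accessory subunit of the NADH-oxidising arm, had 122, 177 and 168 FPKM in the same order of libraries, the highest complex I ratio at 0.53. Ndufb10, a membrane-arm subunit, had 96.9, 74.6 and 86.3 FPKM and the lowest ratio of the 77 genes, -0.37. The other called genes were Ndufa6 (0.25, higher) and Ndufb4 (-0.26), Ndufb7 (-0.22), Ndufv1 (-0.14) and Ndufv2 (-0.14), all lower. Of these lower genes, Ndufv1 and Ndufv2 turned to above 0 after rescaling to TPM, at 0.055 and 0.053.

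In complex II, Sdhd was called lower in the authors' deposited table (log2 ratio -0.19, and 0.0049 after rescaling to TPM), while Sdhc (-0.052) and Sdhb (0.021) were not called. Complex III had Uqcr11 (-0.20) and Uqcrb (-0.16) called lower there, of 8 genes. Uqcrb turned to 0.039 after rescaling, and Uqcr11 stayed at -0.0062.

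Complex V showed opposite ratios for genes of identical mature product. Atp5g2 and Atp5g3 encode the same mature c-ring subunit with different import sequences. Atp5g2 was called higher in the authors' deposited table (log2 ratio 0.14) and Atp5g3 lower (-0.31). The share of Atp5g2 in their summed FPKM was 48.4%, 56.1% and 53.7% in the control, conditioned-media and resveratrol libraries. The peripheral-stalk gene Atp5j (206, 164 and 204 FPKM) had the lowest ratio of complex V, -0.32, and Atp5l (280, 250 and 291 FPKM), a small membrane subunit, was called lower at -0.16. Atp5l turned to 0.037 after rescaling to TPM. The F1 genes Atp5a1, Atp5b, Atp5c1, Atp5d and Atp5e were not called, with ratios between -0.058 and 0.029.

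**Figure D3:**
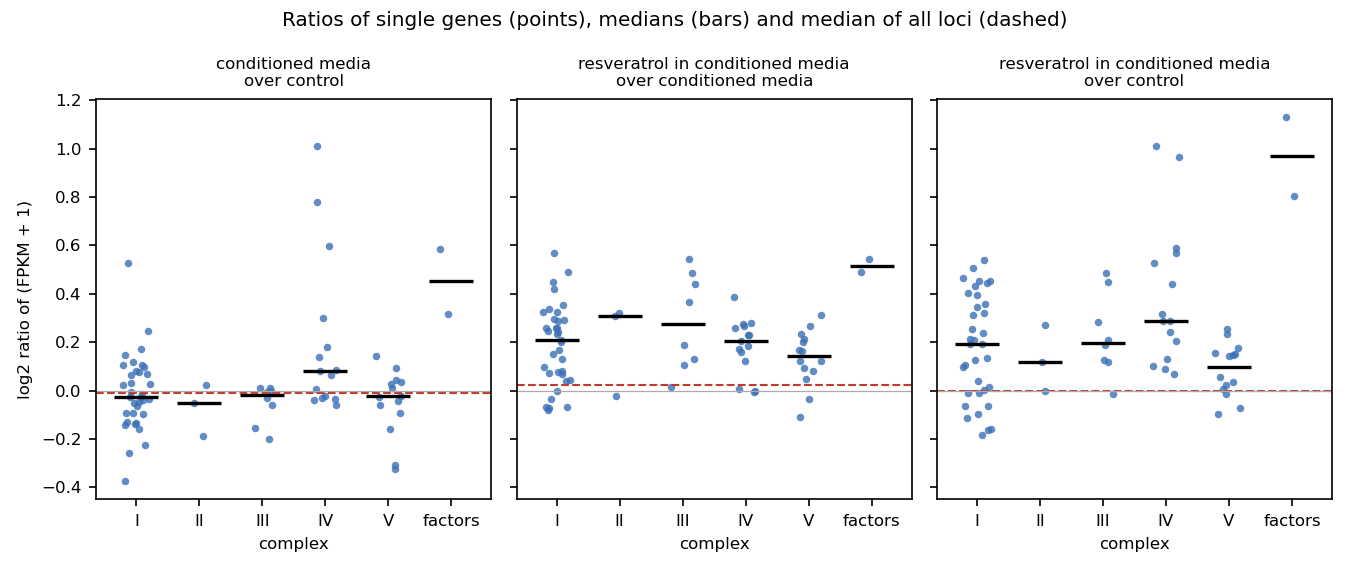
Log2 ratio of (FPKM + 1) of each gene (points) by complex in the 3 comparisons, with the median of each complex (black bar), the median of all loci (red dashed line) and 0 (grey line). With conditioned media over control the complex medians lie between -0.052 and 0.081, and with resveratrol over conditioned media between 0.14 and 0.31.

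Resveratrol in conditioned media against conditioned media alone asked how cells in the cancer-cell medium differed when resveratrol was present. Most chain genes were a little higher: 67 of the 77 had a ratio above 0, with a median log2 ratio of 0.20 beside 0.025 for all loci, of which 52.5% were above 0. No gene passed the size rule in either direction, against 1.53% of all loci higher and 4.97% lower. The authors' deposited table called 48 of the 77 higher and 1, Atp5b, lower, beside 34.1% and 29.5% of tested loci. Of those 49 calls, 26 (53.1%) had a test statistic below 2 in size, as had 36.1% of the calls over all loci. The resveratrol library was the highest of the 3 for 58 genes and the lowest for 5, and the 77 genes made up 0.454% of its summed FPKM.

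Every complex had a median above 0: 0.21 in complex I, 0.31 in complex II, 0.28 in complex III, 0.20 in complex IV and 0.14 in complex V. After rescaling to TPM 66 of the 77 genes were above 0, and 64 after centring on the median of all loci.

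In complex I the core subunits, which carry out electron transfer and quinone reduction, had lower ratios than the accessory ones. The 7 nuclear-encoded core genes had a median log2 ratio of 0.071, and the 28 accessory genes 0.24. Of the core genes 1, Ndufv2 (65.4, 59.3 and 70.4 FPKM), was called higher in the authors' deposited table, and of the accessory genes 17. Ndufs1, the largest core subunit, had 57.8, 54.2 and 51.7 FPKM, and Ndufs8 56.2, 54.4 and 51.9 FPKM, so both were lowest with resveratrol. Ndufs7 had a ratio of 0.42 but was not called, and shares its span with many loci. Ndufs3 (103, 96.2 and 103 FPKM) and Ndufv1 (58.9, 53.5 and 56.3 FPKM) were not called. The core and accessory groups were not compared by a test.

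The highest complex I ratio was that of Ndufc1, a membrane-arm accessory subunit, at 98.5, 96.6 and 144 FPKM (log2 ratio 0.57). Ndufa7 (0.49) and Ndufb4 (104, 86.6 and 118 FPKM, 0.45) followed among the called genes. The lowest was Ndufb8, also of the membrane arm, with 121, 131 and 124 FPKM (-0.080, not called). The remaining genes called higher in the authors' deposited table were Ndufa3, Ndufa5, Ndufa6, Ndufa12, Ndufa13, Ndufb5, Ndufb6, Ndufb9, Ndufb10, Ndufb11, Ndufc2, Ndufs4, Ndufs5 and Ndufs6, with ratios between 0.17 (Ndufb9) and 0.35 (Ndufb11). Ndufa1, Ndufa2, Ndufa8, Ndufa9, Ndufa10, Ndufa11, Ndufb2, Ndufb3, Ndufb7 and Ndufv3 were not called.

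In complex II the membrane anchors Sdhc (log2 ratio 0.32) and Sdhd (0.31) were called higher in the authors' deposited table, while the catalytic iron-sulfur gene Sdhb (-0.023) was not called. In complex III the small subunits had a median of 0.44. Uqcr10 (124, 119 and 174 FPKM) was the highest at 0.54, followed by Uqcr11 (179, 155 and 218 FPKM, 0.49), the hinge protein Uqcrh (0.44) and Uqcrb (0.37), all called higher there. The Rieske iron-sulfur protein Uqcrfs1 (84.0, 84.0 and 95.8 FPKM) was called higher at 0.19 and Uqcrc2 at 0.13. Uqcrc1, at 0.017, was the lowest of the complex, and Uqcrq (0.11) was not called.

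In complex IV the ubiquitous genes had the higher median ratio. The 11 ubiquitous or single-gene subunits had a median log2 ratio of 0.23, and 10 of them were called higher in the authors' deposited table; the exception was Cox5b, at 231, 242 and 243 FPKM. The muscle isoforms had a median of -0.0028 and none was called, but Cox6a2 had a ratio of 0.18, close to the 0.17 of its partner Cox6a1. Cox7a2l (183, 202 and 264 FPKM) had the highest ratio of the complex at 0.39. The called ubiquitous genes ranged from 0.12 (Cox7b) to 0.28 (Cox6b1, at 233, 234 and 284 FPKM). The muscle share of the pair was 15.4% for Cox6a2, 14.3% for Cox7a1 and 6.42% for Cox8b with resveratrol.

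In complex V, Atp5j (0.31) and Atp5g3 (0.23), which were lower in conditioned media, were called higher in the authors' deposited table. With resveratrol they stood near their control level by deposited FPKM. After rescaling to TPM they were above control, with log2 ratios of 0.18 (Atp5j) and 0.12 (Atp5g3). Atp5j2 (0.27), Atp5l (0.22), Atp5c1 (0.20), Atp5e (0.17), Atp5h (0.12), Atp5g2 (0.092) and Atp5a1 (0.047) were called higher there as well. Atp5b had the lowest ratio of the 77 genes, -0.11. Atp5d, Atp5f1, Atp5k and Atp5o (233, 240 and 234 FPKM) were not called. The factors Atp5s (0.54) and Atp5sl (0.49) were both called higher.

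Over all loci the ratio fell with transcript length, while among the chain genes only the class above 1500 bases had a lower median. The 77 genes are short, with a median transcript of 758 bases. The median was 2903 for all loci that had a transcript length and a mean of 1 FPKM or more. Loci without a length are in none of the length classes. Among all loci with transcripts of 700 bases or less, the median log2 ratio with resveratrol over conditioned media was 0.21 (239 loci, members included), and it was 0.22 for the 34 chain genes of that length. Above 700 and up to 1000 bases the medians were 0.15 for all loci and 0.22 for 16 chain genes. Above 1000 and up to 1500 bases they were 0.063 and 0.23 (13 chain genes), and above 1500 bases 0.016 and 0.074 (14 chain genes).

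Short loci in general thus had higher ratios with resveratrol, and in the shortest class the chain genes were at the level of the class. The complex I core transcripts had a median of 1623 bases and the accessory ones 693.5 bases. Across the 77 genes Spearman's rho between length and ratio was -0.18, a description over genes that share the same libraries. The part of length in the result was not tested.

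**Figure D4:**
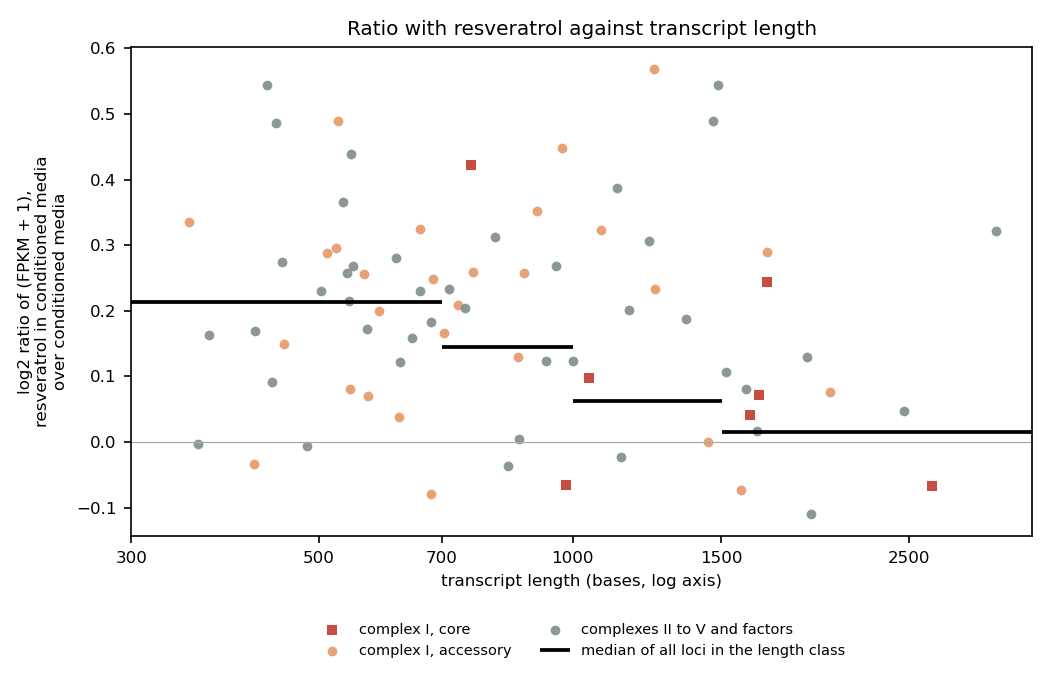
Log2 ratio of (FPKM + 1), resveratrol in conditioned media over conditioned media, against transcript length (log axis) for the 77 genes, with complex I core genes as squares; black lines are the median of all loci in each length class. The line falls from 0.21 in the shortest class to 0.016 above 1500 bases, and the core genes have a median length of 1623 bases.

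Markers of cell state also differed between these libraries. The 6 markers of cycling myoblasts summed to 125, 154 and 40.8 FPKM in the control, conditioned-media and resveratrol libraries. Of these, 5 had a mean of 1 FPKM or more, and 4 of the 5 were lower by the size rule with resveratrol over conditioned media. The steepest were the cell-cycle genes Ccnb1 (26.1, 38.7 and 5.98 FPKM) and Top2a (47.4, 59.3 and 12.5 FPKM). The 8 myotube markers summed to 3020, 2862 and 4250 FPKM, a sum carried mostly by Acta1, and did not move as one. With resveratrol over conditioned media 6 were called higher and 2 lower in the authors' deposited table. Myog, the myogenic regulator myogenin, had 384, 313 and 596 FPKM, and Actn2, a Z-disc protein, 10.2, 15.1 and 19.2 FPKM. The 2 called lower were the giant sarcomere protein Ttn, at 20.0, 10.1 and 7.34 FPKM, and the creatine kinase Ckm, at 60.8, 56.3 and 43.2 FPKM (Ckm was picked after its values were seen). The 4 fibroblast markers summed to 2415, 3331 and 2343 FPKM, a sum carried by collagen genes, and all 4 were called higher with conditioned media in the authors' deposited table. With resveratrol Col1a1 was below control (899, 1056 and 527 FPKM), while Dcn (27.8, 48.9 and 43.6 FPKM), Pdgfra (4.98, 9.86 and 6.98 FPKM) and Col3a1 (log2 ratio 0.25) were above it. Macrophage markers summed to 1.20, 1.90 and 1.86 FPKM with Ptprc and Adgre1 at 0, and adipocyte markers to 0.118, 0.480 and 0.238 FPKM with Ucp1 at 0. The part of cell state in the chain's ratios was not tested.

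Resveratrol in conditioned media against control combined both steps. The 77 genes had a median log2 ratio of 0.19 beside 0.00021 for all loci, and 63 genes were above 0 (50.0% of all loci). After rescaling to TPM all 77 were above 0 and the medians were 0.38 for the genes and 0.14 for all loci. The wider gap between these medians comes from the pseudocount, kept at 1 on a scale of smaller values, and not from the scaling. Cox8b (1.01) and Atp5s (1.13) were higher by the size rule, which 3.60% of all loci passed upward. After rescaling to TPM Atp5s was at 0.98 and no longer passed it, and Cox6a2 at 1.10 passed it. The lower value of Atp5s, a low gene, comes from that pseudocount and not from the scaling of the libraries. No gene was lower by it (5.25% of all loci). The authors' deposited table called 43 higher and 4 lower, beside 34.1% of tested loci in each direction. The 4 were Ndufb7 (142, 122 and 125 FPKM, the lowest ratio at -0.18), Ndufb10, Ndufs1 and Atp5b. Each was above 0 after rescaling.

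Here too the ratio over all loci fell with length. Loci of 700 bases or less had a median of 0.29 over all loci and 0.25 over the chain genes, and loci above 700 and up to 1000 bases 0.20 and 0.18. The chain genes of these classes thus had medians slightly below those of all loci of their length. Above 1000 and up to 1500 bases the medians were 0.075 for all loci and 0.19 for the chain genes, and above 1500 bases -0.020 and 0.030. Spearman's rho between length and ratio was -0.31 over the 77 genes. The part of length was not tested.

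The highest ratios after Cox8b in complex IV were those of Cox6a2 (0.96), Cox7a1 (0.59), Cox8a (0.57) and Cox7a2l (0.53), and the complex's median was 0.29. Cox5b was the lowest at 0.068. The complex I median was 0.19, from -0.18 (Ndufb7) to 0.54 (Ndufc1), with -0.0087 for the core genes and 0.22 for the accessory ones. Complex III had 0.20, from -0.014 (Uqcrc1) to 0.49 (Uqcr10). Complex V had 0.099, from -0.099 (Atp5b) to 0.26 (Atp5k, at 316, 338 and 378 FPKM), and complex II 0.12, from -0.0012 (Sdhb) to 0.27 (Sdhc).

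The genes that build and serve the chain were described from lists of known roles. Rescaling to TPM moved their medians against control upward as it did for the chain, so the printed medians that turned are given with both values. Calls of these lists are to be read beside the shares over all tested loci, 25.8% higher and 29.9% lower with conditioned media, and 34.1% and 29.5% with resveratrol over conditioned media. Subunits and the carrier outside the naming rule included Cycs, the mobile electron carrier cytochrome c, at 60.7, 44.5 and 43.5 FPKM, and Cyc1, the cytochrome of complex III, at 165, 152 and 137 FPKM. Both were lowest with resveratrol. The complex V small subunits Usmg5 (255, 224 and 301 FPKM) and 2010107E04Rik (269, 229 and 321 FPKM) were lowest in conditioned media, as Atp5l was. In all, 3 of the 5 genes were called lower with conditioned media in the authors' deposited table (the list's median of -0.18 turned to 0.013 after rescaling), and with resveratrol 2 were called higher and 1 lower.

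Assembly factors help the 5 complexes to form and are not part of the finished enzyme. Of the 14 measured complex I factors, 2 were called higher and 1 lower with conditioned media in the authors' deposited table. That 1 was Ndufaf4, at 7.71, 3.68 and 2.86 FPKM, and it was lower by the size rule with resveratrol over control (-1.17). After rescaling to TPM with the pseudocount kept at 1, which reduces the ratios of low genes more, it was at -0.74. Ndufaf3 had 6.54, 9.11 and 10.1 FPKM, and Foxred1 8.59, 8.74 and 11.2 FPKM. Of the 20 complex IV factors 4 were called each way with conditioned media, and 8 higher and 3 lower with resveratrol over conditioned media. Higd1a, a hypoxia-inducible complex IV partner, had 54.5, 94.7 and 72.2 FPKM, and its paralog Higd2a 41.9, 59.0 and 94.0 FPKM. Higd2a was higher by the size rule with resveratrol over control (log2 ratio 1.15). Cox19, of the copper delivery route, was lowest in conditioned media at 30.1, 17.9 and 35.9 FPKM. Coa4 had 4.07, 4.83 and 7.83 FPKM.

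Among the 4 complex II factors Sdhaf1, needed for the iron-sulfur subunit, had 4.98, 6.95 and 11.3 FPKM, and Sdhaf4 21.3, 26.4 and 32.5 FPKM. Sdhaf1 was higher by the size rule with resveratrol over control (log2 ratio 1.04). The 5 complex III factors had a median of 0.17 with resveratrol over conditioned media, led by Uqcc3 (5.21, 4.69 and 7.49 FPKM) and Uqcc1 (17.7, 17.7 and 26.2 FPKM), both called higher in the authors' deposited table. Bcs1l, which inserts the Rieske protein, had 7.43, 6.88 and 7.87 FPKM. The 4 complex V genes had a median of 0.066, with Atpaf2 at 14.3, 12.7 and 17.3 FPKM and Atpaf1 at 7.16, 7.11 and 7.60 FPKM. The ATPase inhibitor Atpif1 had 60.4, 71.6 and 74.0 FPKM.

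Protein import brings the nuclear-encoded subunits into the organelle. Of 16 import genes, 12 were called lower and 0 higher with conditioned media in the authors' deposited table, with a median log2 ratio of -0.29 (-0.096 after rescaling to TPM). The outer-membrane channel Tomm40 had 32.2, 22.9 and 17.3 FPKM, and the small chaperone Timm10 28.7, 17.8 and 23.8 FPKM. Timm50 had 23.9, 16.3 and 21.3 FPKM, and Tomm7, a small subunit of the outer-membrane channel, was lowest in control at 51.9, 56.7 and 71.4 FPKM. With resveratrol over conditioned media 12 of the 16 import genes were above 0, with a median log2 ratio of 0.16. In that comparison 8 were called higher and 1, Tomm40, lower in the authors' deposited table.

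The list of mitochondrial DNA expression held 13 measured genes of DNA replication, transcription, transcript stability and translation. Of these, 12 had a ratio below 0 with conditioned media (5 called lower in the authors' deposited table). With resveratrol over conditioned media 12 were above 0 (7 called higher there). The 5 called lower with conditioned media were Polg, the transcript-stability gene Lrpprc and the translation factors Gfm1, Tsfm and Tufm. After rescaling to TPM 6 of the 13 were below 0 with conditioned media, and the median turned from -0.15 to 0.040. The DNA polymerase Polg had 12.2, 6.87 and 9.42 FPKM and its accessory subunit Polg2 3.66, 3.41 and 6.88 FPKM. The RNA polymerase Polrmt had 9.72, 5.98 and 7.59 FPKM. The factors Tfb1m and Tfb2m were highest with resveratrol, at 6.03, 6.49 and 8.77 FPKM and at 15.7, 14.5 and 21.8 FPKM.

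Of 11 carriers, porins and cristae genes 6 were called lower and 2 higher with conditioned media in the authors' deposited table, among them the adenine nucleotide carrier Slc25a5 (361, 261 and 239 FPKM) and prohibitin Phb (49.9, 33.5 and 40.6 FPKM). The 2 called higher were the porins Vdac1, at 161, 239 and 220 FPKM, and Vdac3 (log2 ratio 0.21). The median of the 11 turned from -0.14 to 0.052 after rescaling to TPM. Of 18 genes of the TCA cycle and pyruvate dehydrogenase 2 were called higher and 7 lower with conditioned media in that table (median -0.056, and 0.13 after rescaling). The share called higher was smaller than that of all loci, and the share called lower was larger. Idh3a had 43.0, 34.1 and 35.9 FPKM, and Suclg2 24.7, 29.5 and 31.0 FPKM. With resveratrol over conditioned media 7 of the 18 were called higher and 4 lower, nearer to the shares of all loci. Pdhx had 16.1, 13.4 and 18.8 FPKM, Pdhb 72.9, 71.2 and 92.5 FPKM, and Idh3b 58.2, 50.8 and 68.3 FPKM.

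Coenzyme Q synthesis genes, 13 in all, had a median of 0.26 with resveratrol over conditioned media, and 7 were called higher and 2 lower in the authors' deposited table. Adck3, a kinase-like protein of the pathway, had 8.91, 17.0 and 29.6 FPKM, and the lipid-binding Coq10b was lowest in conditioned media at 38.8, 19.5 and 37.1 FPKM. Adck3 was higher by the size rule with resveratrol over control (log2 ratio 1.62). Pdss1 was lowest with resveratrol, at 3.83, 3.42 and 1.95 FPKM. Regulators of the chain's genes include the factors whose motifs were searched above. With resveratrol over conditioned media the 7 measured ones had a median of -0.25, with 3 called lower and 0 higher. The ETS factor Gabpa had 23.1, 24.9 and 19.2 FPKM and its partner Gabpb1 11.4, 13.8 and 11.3 FPKM. The coactivator Ppargc1b had 2.32, 2.23 and 1.47 FPKM, and Pprc1, a coactivator related to PGC-1alpha, had 13.1, 5.49 and 5.00 FPKM. Pprc1 was lower by the size rule with conditioned media (-1.12, and -0.77 after rescaling to TPM with the pseudocount kept at 1).

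**Figure D5:**
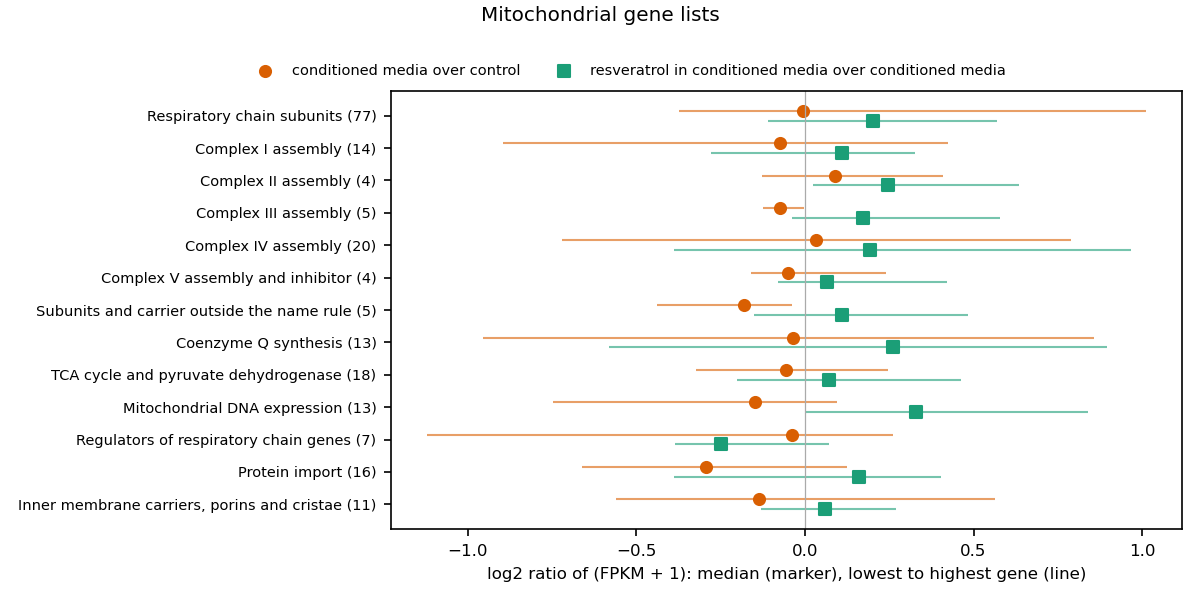
Median log2 ratio of (FPKM + 1) of the 77 chain genes and of each mitochondrial gene list (number of measured genes in brackets) for conditioned media over control (circles) and resveratrol in conditioned media over conditioned media (squares); lines run from the lowest to the highest gene. Protein import has the lowest median with conditioned media, -0.29, and the regulators are the only list with a median below 0 with resveratrol, -0.25.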

How the data were processed

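Total RNA of 3 C2C12 cultures was sequenced as 1 library each. Per the submitters' processing notes, the tools were Cuffdiff 2.2.1.3, TopHat2 2.1.0, Trim Galore 0.4.3.1, Cufflinks 2.2.1.0, Bowtie and FastQC 0.69, and the build was mm10 (their order is not stated). How libraries were scaled, the annotation and the strand setting are also not stated. The deposited table gives FPKM for each locus and library, the authors' log2 fold change, a test statistic (a score made by the authors' Cuffdiff run) and the authors' p-value and q-value. Depth is unknown, so no count test, interval or floor was possible.

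From the deposited FPKM, log2 ratios were computed with a pseudocount of 1 FPKM (which understates the change of low genes) over loci averaging at least 1 FPKM. The size rule was a ratio of 1 in size. Starts were converted to 1-based mm10 coordinates. Transcript lengths came from GENCODE (the transcript with the longest coding part), and promoters from RefSeq. Loci whose symbol had no coding transcript there had no length, and the length classes leave them out. Every member was to be named, with its level in each library where it passed the size rule, had the highest or lowest ratio of its complex in a comparison, was among the 3 most abundant of its complex, or was an isoform or a complex II gene. Of each other mitochondrial list the 2 genes with the largest ratio in size in each comparison were named. Exceptions picked after their values were seen are Ckm, Col3a1, Vdac3 and further members given with levels. The values of 1 member are not reported here singly, though counts and medians include it. Members, lists and rules were chosen with earlier results of these data known. Python 3.11.15, pandas 2.3.3 and numpy 2.4.6 were used, and the code was tested on simulated data. Alternatives were other pseudocounts, filters and scalings, and subsets of the genes. Rescaling to TPM kept the pseudocount at 1 on a scale of smaller values. It thus also reduced the ratios of low loci more than the deposited scale did.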

Additional observations from a re-analysis of the deposited data

How the results depend on the processing

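Rescaling to TPM gave a median log2 ratio of the 77 genes of 0.18 with 71 genes above 0 for conditioned media over control, and a median of 0.38 for resveratrol over control. With a pseudocount of 5 FPKM, 0 genes were higher by the size rule in either of those comparisons (Cox8b 0.84 in both, Atp5s 0.71). For resveratrol over control, 1 gene was higher by the size rule without Atp5s and Atp5sl, and 1 among the 50 genes with transcripts of 1000 bases or less. Of those 50 genes, 44 were above 0 with resveratrol over conditioned media. These 2 subsets were chosen after seeing the data. The other 112 medians and counts over all genes moved by less than 0.1 on the log2 scale or less than 1.5 times. No gene past the size rule changed sign under the alternatives run. Of the genes called in the authors' deposited table, rescaling to TPM turned the sign of 5 of 21 with conditioned media over control, 0 of 49 with resveratrol over conditioned media and 4 of 47 with resveratrol over control. No paired analysis was possible because each condition has 1 library and the labels carry no replicate numbers; for the same reason no replicate could be left out. Depth is unknown, and a difference between 2 libraries has no replicate check.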
